A study of Mus musculus with 10 samples.

Results

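Heat shock proteins and cytosolic chaperones were followed on Illumina mouse bead arrays of IM2 myotubes, muscle cells formed in culture by fusion of the myoblasts of a mouse line. The members were chosen by gene symbol alone: every probe annotated to a gene of the Hspa, Hspb, Hspd, Hspe, Hsph, Hsp90a, Dnaja, Dnajb or Dnajc families, to a subunit of the CCT chaperonin, to Bag1 to Bag6 or to Hsf1, leaving out the endoplasmic reticulum chaperones Hspa5, Dnajb9, Dnajb11 and Dnajc3. This gave 150 of 45281 probes, for 79 of the 19057 genes annotated. Hsf1, Hsp90ab1 and Dnajb11 had no probe in the annotation used and were not analysed here. All cultures carried PABPN1 with a FLAG tag. PABPN1 binds the poly(A) tail of nuclear RNA, and forms of it with a lengthened alanine tract cause oculopharyngeal muscular dystrophy, in which the protein gathers in nuclear inclusions.

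The WTA group (2 arrays) expressed the wild type protein, the WTD group (3 arrays) expressed the wild type protein at a low level, and the D7E group (3 arrays) expressed mutant PABPN1-FLAG at a level that the submitters call similar to WTA. All were untreated and had been under fusion conditions for 4 days. The labels do not give the promoter of the transgene or whether a group is a single clone. Nor do they say that the replicates of a group came from separate cultures. The p-values below set the difference between groups against the spread of arrays within groups, a spread that may be only technical. All 8 myotube marker genes examined, such as Acta1 and Myog, were above background on every array, while Pax7, a marker of muscle stem cells, was on none. The mean log2 level over the myotube markers was 12.96 to 13.09 in WTA, 12.93 to 13.02 in WTD and 12.92 to 13.01 in D7E. The 6 fibroblast markers had a mean log2 level of 6.61 to 6.91 in WTA, 6.37 to 6.56 in WTD and 6.5 to 6.74 in D7E, and 3 of the 6, Col1a1 among them (11.1 to 11.29, 10.3 to 10.6 and 10.56 to 11.06), were above background on all arrays. The 3 proliferation or myoblast genes on the array, none of which was above background on all arrays, had a mean log2 level of 4.51 to 4.82 in WTA, 4.28 to 4.45 in WTD and 4.25 to 4.39 in D7E, and the part of the fibroblast and myoblast differences in the results below was not tested. The probe for mouse Pabpn1 had normalized log2 signals of 9.24 and 9.18 in WTA, 10.24, 10.26 and 9.87 in WTD, and 9.16, 9.58 and 10.58 in D7E, so it was not lowest in the group labelled low. The labels do not say whether that probe also reads the transgene, and none of its differences passed the test (smallest adjusted p = 0.0552, WTD against WTA).

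Chaperones bind proteins that are unfolded or partly folded and keep them from sticking together. HSP70 proteins hold and release their clients in an ATP cycle that J proteins (the Dnaj genes) start and that BAG and HSP110 proteins reset by exchanging the nucleotide, while small heat shock proteins hold unfolded clients without ATP. HSP60 (Hspd1) with its lid HSP10 (Hspe1) folds proteins inside mitochondria, and the CCT ring, also called TRiC, folds actin and tubulin in the cytosol. In muscle, small heat shock proteins and the Bag3 and Hspb8 pair are known for guarding the contractile apparatus. Many of these genes are switched on by the factor HSF1 through heat shock elements, which are short inverted repeats of the letters GAA and TTC.

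The promoters of Hspe1 and Hspa1a are shown because Hspe1 gave the smallest p of all members and Hspa1a, the stress-inducible HSP70, is the textbook HSF1 target. Each run is the 250 bases before the gene's start, 5′ to 3′ on the gene's strand, from RefSeq on mouse build GRCm38.p6, with every match to GAANNTTC or TTCNNGAA in capitals.
Hspe1, chr1:55087898-55088147, plus strand: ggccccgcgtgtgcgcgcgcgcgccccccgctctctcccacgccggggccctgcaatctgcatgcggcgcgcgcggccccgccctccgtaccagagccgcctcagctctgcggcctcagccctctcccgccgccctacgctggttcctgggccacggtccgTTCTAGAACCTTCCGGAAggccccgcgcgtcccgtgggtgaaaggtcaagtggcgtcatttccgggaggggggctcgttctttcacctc
Hspa1a, chr17:34972157-34972406, minus strand: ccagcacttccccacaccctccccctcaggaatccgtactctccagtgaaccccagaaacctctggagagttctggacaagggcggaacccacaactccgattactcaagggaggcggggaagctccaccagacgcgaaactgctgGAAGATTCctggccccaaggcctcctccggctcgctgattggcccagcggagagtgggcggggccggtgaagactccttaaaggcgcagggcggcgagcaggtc
The capitals of Hspe1 hold 3 overlapping pairs, TTCTAGAA, GAACCTTC and TTCCGGAA, which begin 89, 84 and 79 bases before the start. Hspd1 lies head to head with Hspe1, and the first Hspd1 window of 250 bases before and 50 after its start shares 285 bases with the same window of Hspe1, so both genes look onto the same repeat. Hspa1a has 1 pair, GAAGATTC, 104 bases before its start. In the window that runs to 50 bases past the start, Hspb8 and Bag3 each hold GAAGTTTC after the start, in transcribed sequence.

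Of the 79 member genes 65 matched the promoter table by gene ID. A pair of either kind, searched on both strands of the whole window, stood in 19 of these 65 genes (29.2%), against 17.0% of all 27025 genes in the table. A run of 3 alternating units with 2 free letters between them stood in 4 member genes (Hspe1, Hspd1, Hsph1 and Dnajb6; 6.15%), against 0.662% of all genes. Each such run also holds a pair and is counted there too. A match is a description of letters and not a binding site. Among the genes with a test, the median log2 difference between D7E and WTA was 0.12 for the 15 genes with a pair (-0.62 to 0.83) and -0.02 for the 32 without (-0.65 to 0.63). For WTD against WTA the medians were 0.20 with a pair and -0.08 without, and for D7E against WTD they were -0.04 and 0. The 4 genes with the 3-unit run had medians of 0.13, 0.18 and 0.18 for WTD against WTA, D7E against WTA and D7E against WTD, against -0.03, 0 and -0.04 without it. In all 3 comparisons the ranges of genes with and without either motif overlapped.

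A probe was taken as above background on an array when its detection p was under 0.05. On that count 67 of the 150 member probes (44.7%) were detected on all 8 arrays, against 25.2% of all probes. A further 22 were detected on 2 to 7 arrays, 15 on 1 array and 46 on none. By gene, 61 of 79 had a probe detected on at least 2 arrays. The 18 others were Cct2, Dnaja1, Dnajb3, Dnajb7, Dnajb8, Dnajb14, Dnajc1, Dnajc5b, Dnajc5g, Dnajc6, Dnajc9, Hspa12a, Hspa12b, Hspa13, Hspa14, Hspa1b, Hspb9 and Hspb11, whose probes gave no level that could be compared. Hspa1a and Hspa1b are near-identical genes, so the Hspa1a signal may hold RNA of both. A probe entered a comparison when it was detected on at least 2 arrays of its fit. Levels of single arrays below are log2 signals normalized over all 8 arrays, and differences come from the fit of each comparison.

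No member passed the threshold, a Benjamini-Hochberg adjusted p under 0.05 over all probes tested with limma, in any of the 3 comparisons. For WTD against WTA 0 of 83 member probes were called, where 1.23% of all probes tested were called, and 8 had an unadjusted p under 0.05 (9.64%, against 12.5% of all probes). For D7E against WTA 0 of 85 were called against 0.423%, and 8 had an unadjusted p under 0.05 (9.41% against 15.1%). For D7E against WTD 0 of 89 were called against 0.0266%, and 6 had an unadjusted p under 0.05 (6.74% against 8.12%). The arrays of the groups did not overlap for 26 member probes between WTD and WTA (31.3%, against 29.5% of all probes), for 25 between D7E and WTA (29.4% against 32.5%) and for 15 between D7E and WTD (16.9% against 14.2%). These shares lay near the background in each comparison. By direction, 11 member probes were higher (13.3%, against 14.3% of all probes) and 15 lower (18.1% against 15.3%) in WTD than in WTA. For D7E against WTA 12 were higher (14.1% against 16.1%) and 13 lower (15.3% against 16.3%). For D7E against WTD 12 were higher (13.5% against 7.52%) and 3 lower (3.37% against 6.7%). Of those 12, probes of Cct6b, Dnajc19 and Dnajb4 were above background on no WTD array and entered only through other arrays.

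The median log2 difference over the members was -0.062 for WTD minus WTA, -0.019 for D7E minus WTA and 0.064 for D7E minus WTD, where the medians over all probes tested were -0.02, -0.004 and 0.01. Of the member probes detected on every array of a comparison, 67, 70 and 67 in number, the differences ranged from -0.57 to 0.64, from -0.65 to 0.83 and from -0.34 to 0.53, so none of these exceeded 1 on the log2 scale. The 95% interval of such a probe reached a median of 0.43, 0.41 and 0.36 to each side. It lay within 1 of 0, leaving out a doubling or a halving, for 62 of 67, 63 of 70 and 66 of 67 probes. For probes near background, whose log2 differences are compressed, no such limit holds. D7E and WTD were each compared with the same WTA arrays, so those differences share their controls and are given side by side.

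**Figure D1:**
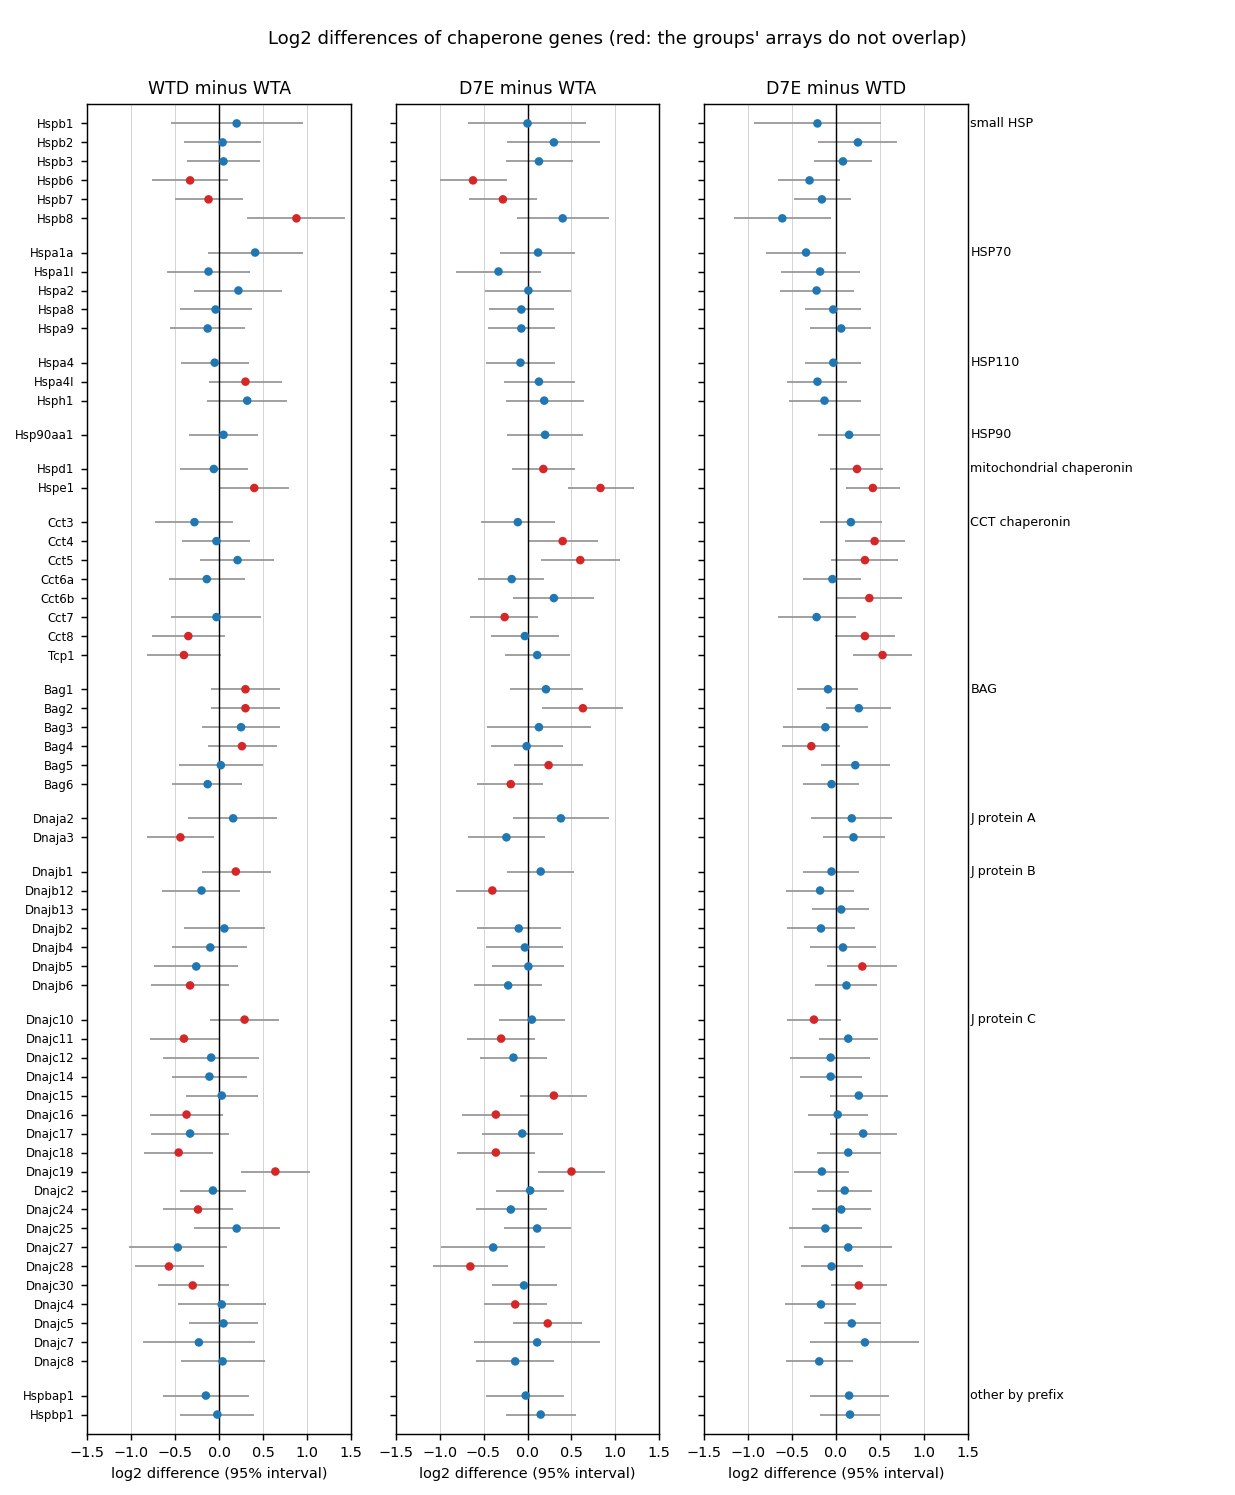
Log2 difference (horizontal axis) of each chaperone gene on its brightest tested probe, for WTD minus WTA, D7E minus WTA and D7E minus WTD, with the 95% interval as a line and genes ordered by family. Red points mark genes whose arrays do not overlap between the groups. All fitted differences lie between -0.65 and 0.88, the highest being Hspb8, which was not above background in WTA, and no gene passed the adjusted threshold.

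Among the mitochondrial chaperones, Hspe1 stood out by its p. Its levels were 6.98 and 6.77 in WTA, 7.37, 7.19 and 7.28 in WTD, and 7.63, 7.80 and 7.68 in D7E. The 3 groups did not overlap: every D7E array was above every WTD array, and every WTD array above both WTA arrays. The means were 6.87 ± 0.14 (SD, n = 2), 7.28 ± 0.09 (n = 3) and 7.70 ± 0.09 (n = 3). D7E exceeded WTA by 0.83 on the log2 scale (SE 0.17, 95% interval 0.46 to 1.21, 1.78-fold), with an adjusted p of 0.0655, the smallest of any member and above the threshold. With quantile normalization alone the adjusted p was 0.0492 and the difference 0.58, with the authors' normalized values 0.0497 and 0.56, and in a joint fit of all 8 arrays 0.0430 and 0.83, so the call of Hspe1 depends on these processing choices. Over all alternatives run its adjusted p lay between 0.00625 and 0.302, and the difference stayed above 0. WTD exceeded WTA by 0.40 (0 to 0.79, adjusted p = 0.393) and D7E exceeded WTD by 0.42 (0.11 to 0.73, adjusted p = 0.478).

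Hspd1, the barrel to which the Hspe1 lid binds, had levels of 9.10 and 9.09 in WTA, 9.17, 9.02 and 8.92 in WTD, and 9.31, 9.27 and 9.24 in D7E on its brighter probe. On that probe its D7E arrays lay above the others by a small step, 0.18 against WTA (-0.18 to 0.54, adjusted p = 0.654) and 0.24 against WTD (-0.07 to 0.54, adjusted p = 0.707). The second Hspd1 probe gave 0 for D7E against WTA (-0.66 to 0.66, adjusted p = 0.997) and 0.27 for D7E against WTD (-0.45 to 0.98, adjusted p = 0.875). The intervals of Hspe1 and Hspd1 against WTA overlap, and the difference between the genes was not tested. Hspa9, the HSP70 of mitochondria, had 12.29 and 12.50 in WTA, 12.37, 12.01 and 12.42 in WTD, and 12.21, 12.36 and 12.40 in D7E, and its groups overlapped in every comparison. Dnaja3, a mitochondrial J protein, had 10.24 and 10.32 in WTA, 9.91, 9.78 and 9.83 in WTD, and 9.73, 10.12 and 10.27 in D7E. All WTD arrays of Dnaja3 were below both WTA arrays (-0.44, -0.82 to -0.06, adjusted p = 0.315), while the D7E arrays spread over both ranges.

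The J proteins of the C class held members with small p against WTA. Dnajc19, a J protein of the mitochondrial inner membrane, had 9.03 and 9.13 in WTA, 9.78, 9.81 and 9.63 in WTD, and 9.69, 9.62 and 9.42 in D7E. Both other groups lay wholly above WTA, by 0.64 for WTD (0.25 to 1.03, adjusted p = 0.139) and by 0.50 for D7E (0.12 to 0.88, adjusted p = 0.214), and D7E and WTD overlapped. With quantile normalization alone Dnajc19 passed between WTD and WTA (0.57, adjusted p = 0.0320). The other Dnajc19 probes were near background, and 1 of them was detected on 3 D7E arrays and on no WTD array. Its D7E mean was at least 1.14-fold above its WTD mean (adjusted p = 0.485). This takes the lowest level detected on each WTD array, or the probe's own where higher, as its level there. Dnajc28, little studied, had 6.68 and 6.83 in WTA, 6.05, 6.31 and 6.14 in WTD, and 5.89, 6.09 and 6.37 in D7E. Both groups lay wholly below WTA, with differences of -0.57 for WTD (-0.96 to -0.17, adjusted p = 0.205) and -0.65 for D7E (-1.07 to -0.22, adjusted p = 0.165). The second Dnajc28 probe gave -0.16 and -0.48.

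**Figure D2:**
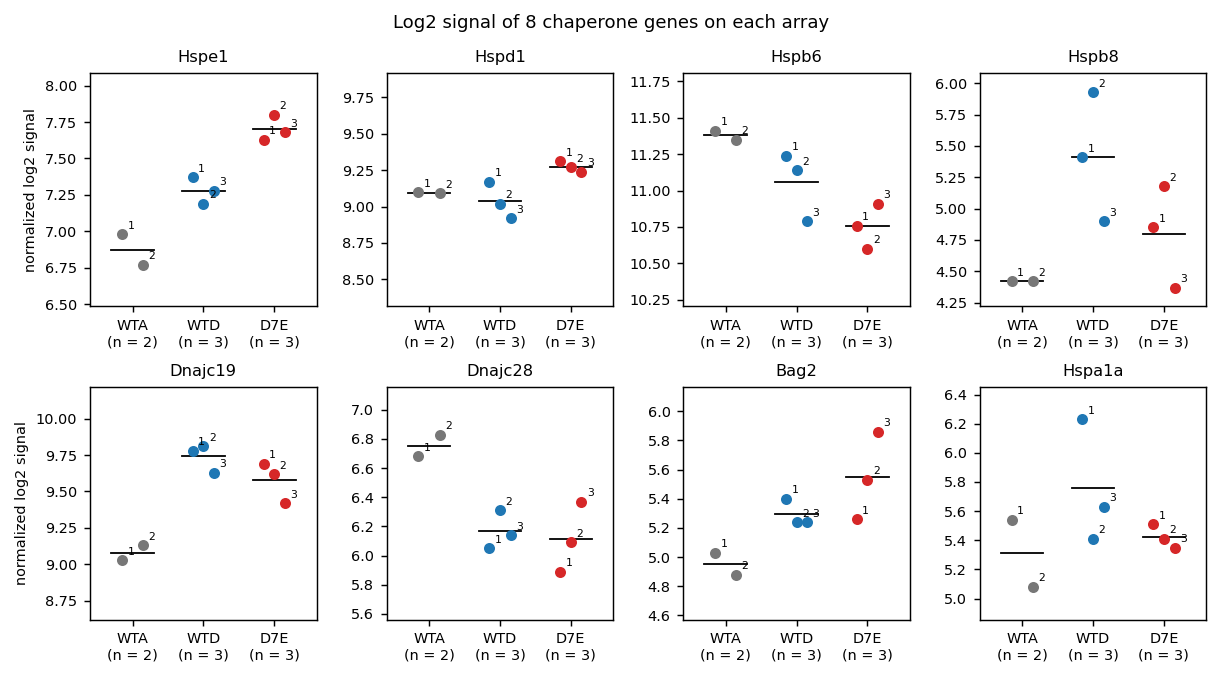
Normalized log2 signal (vertical axis, a separate range in each panel) of 8 chaperone genes on each array, with the replicate number beside each point and the group mean as a bar. Hspe1 has 3 groups that do not overlap, from 6.77 to 6.98 in WTA up to 7.63 to 7.80 in D7E, and both WTA arrays of Dnajc28 lie above all others.

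The small heat shock proteins did not move together. Hspb6, also called HSP20 and abundant in muscle, had 11.41 and 11.35 in WTA, 11.24, 11.14 and 10.79 in WTD, and 10.76, 10.60 and 10.91 in D7E. Its D7E arrays lay wholly below WTA, by a log2 difference of -0.62 (-1.0 to -0.23, adjusted p = 0.147), and WTD also lay below WTA (-0.33, adjusted p = 0.553) while overlapping D7E. Hspb7, a small heat shock protein of heart and skeletal muscle, had 8.36 and 8.32 in WTA, 8.29, 8.28 and 8.11 in WTD, and 8.05, 7.90 and 8.25 in D7E. Both groups were below the WTA arrays, by -0.12 and -0.28 (adjusted p = 0.855 and 0.499). Hspb8, which binds Bag3 in the complex that clears damaged proteins, had 4.42 on both WTA arrays, 5.41, 5.93 and 4.90 in WTD, and 4.85, 5.18 and 4.37 in D7E on its brighter probe. This probe was not above background in WTA and was above it on 3 WTD arrays and 2 D7E arrays. Its WTD mean was at least 1.75-fold above its WTA mean, with an interval of the log2 difference from 0.32 to 1.43 (adjusted p = 0.161). Set against the lowest level detected on each WTA array, or its own where higher, its D7E mean was 1.25-fold above. This is not a lower bound, because a D7E array in that mean was not above background. The interval of the fitted log2 difference, -0.12 to 0.93, includes 0 (adjusted p = 0.460). D7E replicate 3, at 4.37, lay below both WTA arrays. The second Hspb8 probe gave 0.31 for WTD and -0.02 for D7E against WTA. The brighter probe entered the fit of WTD against WTA only through the WTD arrays, and the fit of D7E against WTA only through the D7E arrays. For WTD against WTA the adjusted p of the brighter probe was 0.0494 without WTD replicate 3 and 0.301 with quantile normalization alone. Its log2 difference was 0.88 in the main fit, 0.28 with quantile normalization alone and 0.31 with the authors' normalized values. Over all alternatives run it lay between 0.28 and 1.11, so the bound of 1.75-fold holds for the main normalization only.

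Hspb1, or HSP25 in mice, spread more within groups than between them, with 8.57 and 7.89 in WTA, 8.45, 9.10 and 7.76 in WTD, and 8.73, 7.65 and 8.30 in D7E. Hspb2 and Hspb3, which form a complex of their own in muscle, lay between 7.99 and 8.90 and between 9.61 and 9.95 on all arrays. Their differences ran from 0.04 to 0.30, with adjusted p from 0.611 to 0.962, and their groups overlapped in every comparison. Over the 6 small heat shock proteins tested, the median difference was 0.04 for WTD against WTA, 0.06 for D7E against WTA and -0.18 for D7E against WTD.

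None of the cytosolic HSP70 genes passed the test, and the probes of Hspa8 did not give the same picture. Hspa8, the constitutive HSP70 of the cytosol, had 12.42 and 12.35 in WTA, 12.50, 12.33 and 12.19 in WTD, and 12.25, 12.25 and 12.44 in D7E on its brightest probe, and its differences were -0.04, -0.07 and -0.03. The interval of that probe for D7E against WTD ran from -0.35 to 0.29. Another Hspa8 probe, detected on all arrays, had 10.75 and 10.84 in WTA, 10.42, 10.41 and 10.37 in WTD, and 10.86, 10.46 and 10.53 in D7E. There the WTD arrays lay below all others, by a log2 difference of -0.39 against WTA (-0.77 to -0.01, adjusted p = 0.383). Hspa1a, induced by stress, had 5.54 and 5.08 in WTA, 6.23, 5.41 and 5.63 in WTD, and 5.51, 5.41 and 5.35 in D7E. WTD replicate 1 was the highest Hspa1a array and the groups overlapped, with differences of 0.41 (-0.13 to 0.96), 0.12 (-0.31 to 0.54) and -0.34 (-0.79 to 0.12). Hspa1l and Hspa2, best known from testis, differed by -0.33 to 0.22. The HSP110 exchange factors Hspa4, Hspa4l and Hsph1 lay between -0.21 and 0.32, with adjusted p from 0.581 to 0.977. Hsp90aa1, the inducible cytosolic HSP90, had 6.96 and 7.14 in WTA, 7.09, 7.18 and 7.03 in WTD, and 7.26, 6.99 and 7.50 in D7E, and its differences of 0.05, 0.20 and 0.15 had adjusted p of 0.951, 0.679 and 0.856.

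The CCT ring is built of 8 kinds of subunit in equal number, and probes for 8 member genes of it were tested in at least 1 comparison (Cct6b stands in for Cct6a in testis). Leaving out Cct6b, which entered only through D7E arrays, 5 of 7 CCT genes were above 0 between D7E and WTD (48.7% of all genes tested were), with a median of 0.33 (-0.01 over all genes). An unadjusted p under 0.05 was reached by 2 of 7 (8.43% of all genes), and none passed the adjusted threshold. Tcp1, the alpha subunit, had 10.02 and 9.96 in WTA, 9.45, 9.43 and 9.83 in WTD, and 10.09, 10.19 and 10.01 in D7E. Its WTD arrays lay below all others, with differences of -0.40 for WTD against WTA (-0.82 to 0.02, adjusted p = 0.430), 0.11 for D7E against WTA (adjusted p = 0.809) and 0.53 for D7E against WTD (0.19 to 0.86, adjusted p = 0.415, the smallest of any member in that comparison). Cct8 had a like order, with 9.83 and 9.63 in WTA, 9.54, 9.38 and 9.17 in WTD, and 9.82, 9.72 and 9.56 in D7E, and differences of -0.35, -0.03 and 0.33. Cct4 had 11.12 on both WTA arrays, 11.05, 11 and 11.21 in WTD, and 11.75, 11.51 and 11.32 in D7E. There the D7E arrays were highest, by 0.40 over WTA (0 to 0.80, adjusted p = 0.338) and 0.44 over WTD (0.10 to 0.78, adjusted p = 0.491).

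Cct5 had 4.77 and 5.10 in WTA, 5.32, 5.25 and 4.94 in WTD, and 5.36, 5.35 and 5.77 in D7E, and all D7E arrays were above the rest (0.60 over WTA, adjusted p = 0.209, and 0.33 over WTD, adjusted p = 0.680). The lowest levels detected were 4.42 to 4.68 over the arrays, so Cct5 was not far above background. Over the alternatives run its differences lay between 0.19 and 0.79 and between 0.12 and 0.41. The remaining subunits did not have all D7E arrays above the rest. Cct3 differed by -0.28, -0.11 and 0.17, and Cct6a by -0.14, -0.18 and -0.04 on its brightest probe. A second Cct6a probe, detected on all 8 arrays, gave -0.37, -0.17 and 0.19, the opposite sign for D7E against WTD. Cct7, above background on 5 of the 8 arrays and at 5.14 on WTD replicate 2, differed by -0.03, -0.26 and -0.22. Cct6b was above background on 2 D7E arrays and on no WTA or WTD array. Set against the lowest level detected on each WTA array, or its own where higher, its D7E mean was 1.08-fold above. The interval of the fitted log2 difference, -0.17 to 0.76, includes 0 (adjusted p = 0.546). Set against WTD in the same way, the D7E mean was 1.05-fold above (adjusted p = 0.609). Neither fold is a lower bound, because a D7E array in that mean was not above background. Against WTA and without Cct6b, 1 of 7 CCT genes was above 0 for WTD (median -0.14) and 3 of 7 for D7E (median -0.03), where 48.6% of all genes were above 0 in each.

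**Figure D3:**
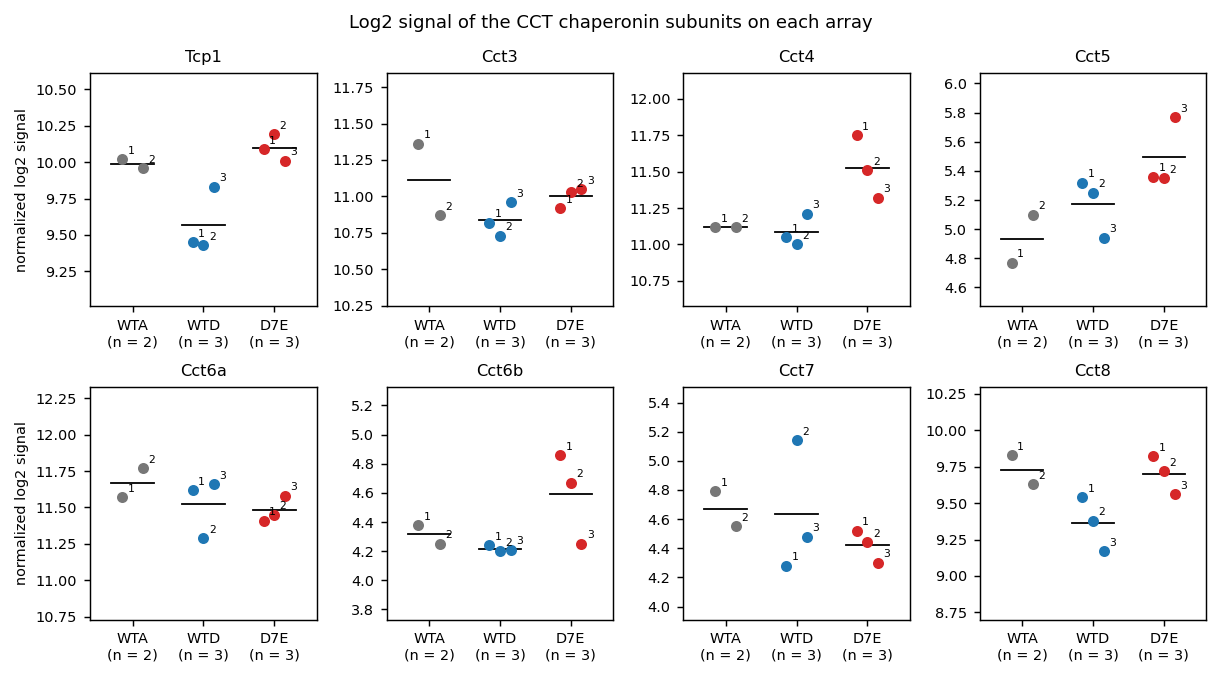
Normalized log2 signal (vertical axis, a separate range in each panel) of the CCT chaperonin genes on each array, with the replicate number beside each point and the group mean as a bar. The WTD arrays of Tcp1 (9.43 to 9.83) lie below the D7E arrays (10.01 to 10.19). Cct6b, and Cct7 except on WTD replicate 2 (5.14), lie near the background level.

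The BAG proteins set how long HSP70 holds its client. Bag2, which restrains the ubiquitin ligase CHIP, had 5.03 and 4.88 in WTA, 5.40, 5.24 and 5.24 in WTD, and 5.26, 5.53 and 5.86 in D7E. Both groups lay above WTA, by 0.30 for WTD (-0.09 to 0.69, adjusted p = 0.548) and 0.63 for D7E (0.17 to 1.09, adjusted p = 0.196), and overlapped each other. Over the alternatives run the Bag2 difference for D7E against WTA lay between 0.21, with the authors' normalized values, and 0.78. Bag1, which links HSP70 to the proteasome, had 13.08 and 12.94 in WTA, 13.41, 13.31 and 13.23 in WTD, and 13.36, 13.37 and 12.94 in D7E, with differences of 0.30, 0.21 and -0.09. Bag3, which leads HSP70 clients to autophagy and stands at the Z-disc of muscle, had 10.82 and 10.27 in WTA, 10.86, 10.78 and 10.75 in WTD, and 11.16, 10.62 and 10.26 in D7E. Its D7E arrays alone spread as widely as all 8 arrays together, and its differences were 0.25, 0.13 and -0.12 with adjusted p from 0.685 to 0.928. Bag4, Bag5 and Bag6 differed by -0.28 to 0.26.

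Beyond those above, the J proteins gave small differences of both signs. Dnajb1, the J protein that works with inducible HSP70, had 9.14 and 9.33 in WTA, 9.55, 9.41 and 9.35 in WTD, and 9.27, 9.42 and 9.46 in D7E, with adjusted p from 0.732 to 0.956. Dnajb6, a suppressor of protein aggregation whose mutations cause a limb-girdle muscular dystrophy, had 8.26 and 8.06 in WTA, 7.94, 7.99 and 7.54 in WTD, and 7.83, 7.93 and 8.07 in D7E on its brightest probe, with differences of -0.33, -0.22 and 0.12. Its other probes gave 0.55 and 0.11 for WTD against WTA, 0.35 and 0.21 for D7E against WTA, and -0.21 and 0.08 for D7E against WTD, so no direction is given for Dnajb6. Dnajb12, a J protein of the endoplasmic reticulum membrane, lay below WTA in D7E (-0.40, -0.81 to 0.01, adjusted p = 0.348). Its WTD arrays overlapped WTA (-0.20, adjusted p = 0.753). Dnajc18 lay wholly below WTA in both groups, by -0.46 for WTD (-0.85 to -0.07, adjusted p = 0.311) and -0.36 for D7E (-0.80 to 0.09, adjusted p = 0.439). Over the J proteins of the C class 7 of 19 were above 0 for WTD against WTA, 7 of 18 for D7E against WTA and 11 of 19 for D7E against WTD, where 48.6%, 48.6% and 48.7% of all genes tested were above 0. The genes Hspbp1 and Hspbap1, members by prefix and not chaperones of the small family, lay between -0.15 and 0.16.

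Probes of the same gene often disagreed. Among member genes with more than 1 tested probe the probes had the same sign in 11 of 20 for WTD against WTA (55.0%, against 57.5% of all such genes), in 14 of 22 for D7E against WTA (63.6% against 56.0%) and in 15 of 23 for D7E against WTD (65.2% against 49.8%). The 2 probes of Dnajc11, a mitochondrial protein, lay on opposite sides of 0 against WTA, at -0.40 and 0.39 for WTD and at -0.30 and 0.58 for D7E. The probes of Dnajc5, a J protein of vesicles, lay at 0.05 and -0.37 for WTD and at 0.23 and -0.29 for D7E. In the family counts each of these genes stands by its brightest probe.

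Some probes split the replicates of a group, a pattern seen after the values were examined. An Hspa8 probe had 9.78 and 12.10 in WTA, 10.38, 9.68 and 12.03 in WTD, and 11.08, 10.90 and 10.61 in D7E. WTA replicate 2 and WTD replicate 3 were far above the other arrays of their groups, while the 2 other Hspa8 probes differed between the WTA arrays by -0.08 and 0.09. The second probe of Hspd1 had 6.85 and 8.0 in WTA, 6.98, 6.60 and 7.89 in WTD, and 7.64, 7.48 and 7.15 in D7E, the same order, where the first Hspd1 probe differed by -0.02 between the WTA arrays. The second probe of Tcp1 (4.24 and 5.43 in WTA, 4.21, 4.28 and 5.36 in WTD) and 2 of the 3 Dnajb6 probes were likewise highest on WTA replicate 2 and WTD replicate 3 within their groups. In all, 6 of 89 member probes (6.74%) had WTA arrays more than 1 apart on the log2 scale, against 1.61% of all probes, and in 5 of the 6 replicate 2 was higher. The exception was Dnajc7, with 7.88 and 6.86. The 95th percentile of raw signal over the median was 5.09 and 6.48 on the WTA arrays, 4.84, 3.20 and 8.37 on the WTD arrays and 6.92, 8.21 and 6.67 on the D7E arrays, so it too was higher on WTA replicate 2 and WTD replicate 3, and its part in the split was not tested. The interval of the Hspa8 probe ran from -1.74 to 1.25 for WTD against WTA. The group values above rest on the brightest probe of each gene, none of which shows the split except that of Dnajc7.

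**Figure D4:**
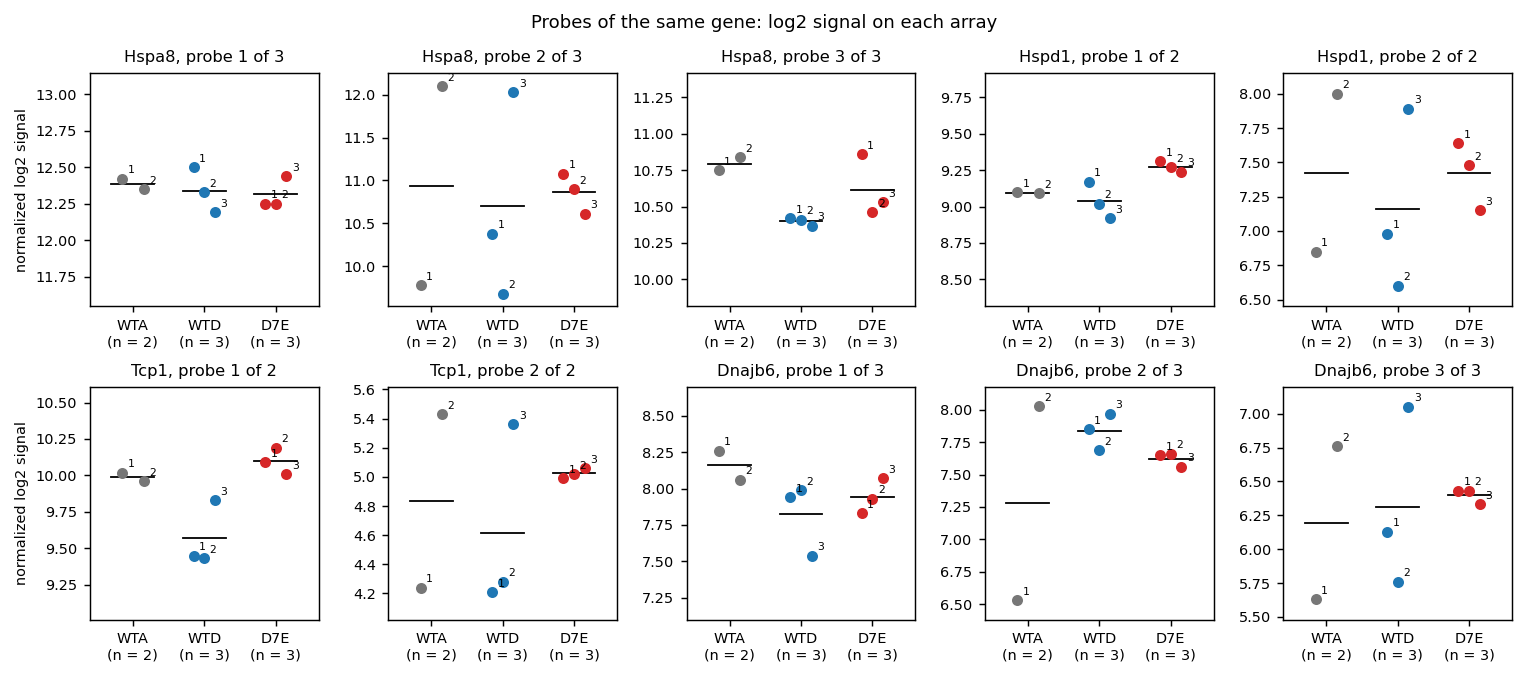
Normalized log2 signal (vertical axis, a separate range in each panel) of each tested probe of Hspa8, Hspd1, Tcp1 and Dnajb6 on each array, with the replicate number beside each point and the group mean as a bar. Probe 2 of Hspa8 lies at 12.10 on WTA replicate 2 and 12.03 on WTD replicate 3 and at 9.68 to 10.38 on the other WTA and WTD arrays, apart from probe 1, which stays between 12.19 and 12.50.

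Helpers of the chaperones outside the symbol rule were read from a list of 33 cochaperones, each on its brightest tested probe. On these probes none of the 28, 30 and 30 tested passed the threshold (medians 0.09, 0.10 and 0.12). Stub1 had -0.29, -0.29 and 0.01 on its brightest probe. A second Stub1 probe was above background on all 8 arrays. It had 7.8 and 7.48 in WTA, 6.37, 6.39 and 6.32 in WTD, and 6.36, 6.89 and 6.32 in D7E. Both WTA arrays were above the others there, and the fit of that probe is not reported here. St13, which steadies HSP70 in its client-bound form, differed by -0.76 for WTD against WTA (-1.24 to -0.28, adjusted p = 0.161) and by 0.71 for D7E against WTD (0.28 to 1.13, adjusted p = 0.355). The St13 probe was above background on 7 of the 8 arrays and lay near it in WTD (4.56, 4.45 and 5.02). Unc45a and Pfdn5 had 0.64 and 0.63 for WTD against WTA, and 0.35 and 0.53 for D7E against WTA. The prefoldin subunits Pfdn2 and Pfdn4, which hand nascent actin and tubulin to the CCT ring, had 0.61 and 0.66 for D7E against WTA, and Ahsa1, the activator of HSP90, had 0.65, with adjusted p of 0.147, 0.155 and 0.164. Cdc37l1 had -0.36 for D7E against WTD. Smyd1 was not above background on any WTD array, and its D7E mean was at least 1.26-fold above its WTD mean (adjusted p = 0.432). Cryab, a small heat shock protein of lens and muscle whose symbol falls outside the rule, differed by 0.12, 0.28 and 0.17.

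Of 14 chaperones of the endoplasmic reticulum, 11, 11 and 12 were tested and none passed, with medians of 0.29, 0.38 and 0.07. Above 0 lay 10 of 11 for WTD against WTA, 8 of 11 for D7E against WTA and 8 of 12 for D7E against WTD, where 48.6%, 48.6% and 48.7% of all genes were, and the comparisons against WTA share their controls. Hspa5, the HSP70 of that compartment, had 0.38 and 0.48 for WTD and D7E against WTA (adjusted p = 0.428 and 0.215). Its probe lay at 4.87 to 5.45 over the arrays, not far above background. Dnajc3 and Creld2 had 0.50 and 0.46 for WTD against WTA, and 0.34 and 0.31 for D7E against WTA. Hsp90b1 and Dnajb9 had 0.43 and 0.39 for D7E against WTA, and 0.14 and 0.29 for WTD against WTA. For D7E against WTD, Sdf2l1, Hsp90b1 and Dnajc3 had -0.38, 0.29 and -0.19.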

How the data were processed

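The members, the gene lists and the comparisons were chosen with earlier results of these data known. Per the file headers, the authors deposited 2 raw tables of unnormalized signals (intensities on a linear scale) with detection p-values. They also deposited a table of normalized log2 values, quantile normalized as judged from the values. The scanner software is not given. WTA signals were the same in both raw tables (100% of values) and counted once. WTD signals stood in another probe order, which was restored by matching each probe's pair of WTA ranks between the tables (unique for all 45281 probes). The rank correlation of WTD with WTA arrays was at most 0.0025 before and 0.725 to 0.789 after, and every WTD value depends on this. For WTD replicates 1 and 3 the deposited detection p-values fitted the signals poorly (rank correlation -0.714 and -0.711, against -0.987 or stronger on the other 6 arrays), and p-values were estimated from 23132 background probes instead.

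Normalization used neqc (limma 3.58.1, R 4.3.3, offset 16) within each raw table for comparisons with WTA, and jointly on 8 arrays for D7E against WTD. Probes detected on at least 2 arrays were tested with limma's lmFit and eBayes (two-sided, no covariates), with Benjamini-Hochberg adjustment over all probes tested. Between 13653 and 17565 probes were detected per array, and the number of arrays limits the precision. A gene is represented by its brightest tested probe. Of all probes 34885 named 1 symbol in the platform annotation, 18 several and 10378 none. The named genes were the 8 with the smallest p in each comparison and 29 genes listed by role, of which 27 were on the array, with the 3 smallest p of the cochaperone and endoplasmic reticulum lists. Dnajc11's second probe, Dnajc5, Dnajc7, the replicate splits, Cryab, Stub1, Bag4 to Bag6, Hspa1l, Hspa2, Hspa4, Hspa4l and the prefix genes were added after the values were seen. A bound ("at least") sets the bright group's mean against the lowest level detected on each dim array, or the probe's own where higher. It is given only where every array of the bright group was above background. It concerns group means only and carries no interval. Replicate numbers were not taken as pairs. The code was tested on simulated data. Alternatives were other normalizations, filters and weights, a replicate block and leaving out each array. Replicate 3 of WTA, implied by the triplicates that the design text names, was not analysed here. No slide or date is given, so batches were not tested.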

Additional observations from a re-analysis of the deposited data

How the results depend on the processing

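The count of members past the threshold was 0 for D7E against WTD under all 17 alternatives. For WTD against WTA (14 alternatives) it was 1 with quantile normalization alone and 1 with the authors' normalized values (Dnajc19 in both), 0 to 1 when each replicate was left out (Hspb8 without WTD replicate 3), and 0 otherwise apart from the block. With the replicate number as a block it was 2 for WTD against WTA (Hspb8 and a probe of Hspa8) and 0 for the other comparisons. Deviations of same-numbered arrays from their group means correlated at -0.27 to 0.15. With 2 or 3 arrays in a group such deviations depend on each other, so they cannot decide whether the numbers pair the arrays. For D7E against WTA (14 alternatives) the count was 1 with quantile normalization alone, 1 with the authors' values and 1 in the joint fit of 8 arrays (Hspe1 each time), 0 to 0 when each replicate was left out, and 8 under median centring (Bag1, Bag2, Cct4, Cct5, Dnajc11, Dnajc15, Dnajc19 and Hspe1), where 1648 of all probes were called. Over the alternatives the count over all probes ran from 0 to 539, 0 to 1648 and 0 to 72 in the 3 comparisons. Median centring moved the median of all tested probes by -0.085, 0.312 and 0.391 (log2), and its differences below are relative to that shift. Its adjusted p-values and counts, the 8 members and 1648 probes among them, come from the fit in which the shift was not removed. The cause of the changes was not tested.

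Signs that changed belonged to differences that were not called. Under median centring, WTD against WTA gave -0.08 for Hsp90aa1, -0.10 for Hspb2 and -0.08 for Hspb3. D7E against WTA gave 0.15 for Cct3, 0.10 for Cct6a, 0.20 for Cct8, 0 for Dnaja3, 0.23 for Hspa8, 0.24 for Hspa9 and 0.16 for Hspb1. D7E against WTD gave 0.25 for Bag1, 0.25 for Bag3, 0.32 for Cct6a, 0.29 for Dnajb1, 0.01 for Dnajb12, 0.19 for Dnajc19, 0.11 for Dnajc28, 0.34 for Hspa8, 0.11 for Hspb1, 0.07 for Hspb6, 0.15 for Hspb7 and 0.21 for Hsph1. The block gave 0.03 for Cct7 and 0.04 for Hspa8 in WTD against WTA and 0.04 for Cct8 in D7E against WTA. Array weights gave 0.02 for Hspa8 and -0.01 for Hspb3 in WTD against WTA, 0.01 for Cct8 in D7E against WTA and 0 for Hspa9 in D7E against WTD. Quantile normalization alone gave 0 for Hspb1 in D7E against WTA.

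Leaving out each replicate in turn gave, for WTD against WTA, -0.28 to 0.13 for Cct7, -0.03 to 0.14 for Hsp90aa1, -0.02 to 0.52 for Bag3, -0.13 to 0.54 for Hspb1, -0.17 to 0.26 for Hspb2, -0.09 to 0.19 for Hspb3, -0.10 to 0.01 for Cct4 and -0.12 to 0.04 for Hspa8. For D7E against WTA it gave -0.35 to 0.13 for Cct3, -0.13 to 0.07 for Cct8, -0.35 to 0.34 for Hspb1, -0.14 to 0.41 for Bag3, -0.13 to 0.37 for Hspa1a, -0.17 to 0.04 for Hspa9 and -0.02 to 0.28 for Hspb3. For D7E against WTD it gave -0.16 to 0.02 for Cct6a, -0.10 to 0.01 for Dnajb1, -0.10 to 0.05 for Hspa8, -0.41 to 0.04 for Cct7, -0.17 to 0.07 for Dnajc28, -0.07 to 0.13 for Hspa9, -0.54 to 0.12 for Hspb1, -0.02 to 0.20 for Dnajb6, -0.17 to 0.05 for Bag1 and -0.36 to 0.09 for Bag3. A group left with 1 array was assumed to vary like the others.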
